A study of Arabidopsis thaliana with 4 samples.

Results

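CDK inhibitors are small proteins that bind cyclin-dependent kinases (CDKs) or their cyclin partners and hold the cell cycle back. Plants have 2 groups of them, the KRP proteins, which share a stretch with the animal inhibitor of the Kip type, and the SIAMESE proteins, which are found in plants. KRP proteins act mainly on CDKA;1 with D-type cyclins at the entry into DNA replication, while SIM and SMR1 block mitosis and let cells pass into endoreduplication, in which DNA is copied without division. The genes described are the 7 KRP genes KRP1 to KRP7 and 3 SIAMESE genes, SIM, SMR1 and SMR4. They were picked by gene identifier and are 10 of 27322 genes in the table.

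The measurements are RNA-seq read counts from shoot apices of Arabidopsis thaliana plants at 6 weeks, kept at 22 °C in days of 16 h of light, with older flowers removed. All had a cold treatment (stratification) of 2 days at 4 °C. Both groups are labelled clv3, a mutant in the gene for the peptide that limits stem cell number, and the second group, mp clv3, also carries a mutation in MP (MONOPTEROS, ARF5), an auxin response factor needed to start flowers. The growth description gives the double mutant as mp319 clv3-7 and names Col-0, the wild type, as the other genotype, which the labels of the libraries call clv3, and clv3 is used here as on those labels. The labels list 2 libraries per genotype, but the deposited table holds 1 column per genotype, so no value for a single library and no spread between plants can be given. Both mp clv3 titles end in (2) and the clv3 titles do not, and the meaning of this mark is not given. Whatever it stands for cannot be told apart from genotype.

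The clv3 column held 100328819 reads and the mp clv3 column 103347441. MP was covered by 25336 reads in clv3 against 5063 in mp clv3. CLV3, the gene that both labels name as mutant, had 110 and 1278 reads, 11.3-fold higher in mp clv3 (interval 8.56 to 15.1). These transcript levels do not tell whether the clv3 column comes from clv3 or Col-0 plants. All 5 shoot meristem markers were read in both columns, 3 of them higher and 2 lower in mp clv3 by the authors' deposited table. STM went from 98.8 to 217 RPKM (a read number corrected for gene length and for depth), WUS from 5.69 to 21.8 and CLV1 from 20.7 to 41.3, while KNAT1 went from 42.5 to 11.3 and KNAT2 from 15.2 to 12.4. The 6 measured floral organ markers all fell by the authors' deposited table, from a summed level of 437 to 2.15 RPKM, with AP3, SEP1 and SEP2 at 2 reads each. The 6 anther and tapetum markers also fell, from a summed 144 to 0.483 RPKM, with MS2 and DYT1 at 0 reads. In bulk tissue, fewer cells of a type and less RNA per cell cannot be told apart, and the part that this difference in floral tissue has in each value below was not tested.

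The 3 SIAMESE genes were all lower in mp clv3, SMR1 by 8.10-fold, SIM by 4.01-fold and SMR4 by 1.87-fold. The 7 KRP genes parted. KRP1, KRP4 and KRP2 fell by 2.58-fold, 1.45-fold and 1.21-fold, KRP7 and KRP5 rose by 1.77-fold and 1.46-fold, and KRP3 and KRP6 did not pass the test. The KRP genes summed to 125 RPKM in clv3 and to 118 in mp clv3, while the SIAMESE genes summed to 31.3 and 7.14 RPKM.

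Calls are those of the authors' deposited table at a false discovery rate (FDR) under 0.05, whose test is not given in the sources used here. As only joined columns are at hand, neither these FDRs nor the calls can be taken to cover spread between plants. By that rule 6 of the 10 genes were lower and 2 higher, where 46.3% of all 27322 genes were called lower and 26.4% higher, 72.7% together. Among the 18832 genes averaging 100 reads or more, as all 10 members do, 16497 were called, 10044 lower and 6453 higher. The count of 8 called genes is thus near the background and is no result about the inhibitors. At least 2-fold, 3 of the 10 (SMR1, SIM and KRP1) were lower and none higher, against 18.5% and 9.33% of all genes. KRP1 would leave this set with quantile normalization or a pseudocount of 1 RPKM, which put its log2 ratio at -0.82 and -0.80 in place of -1.36. The median log2 ratio in the authors' deposited table was -2.00 for the SIAMESE members, -0.03 for the KRP genes and -0.11 for all genes. Folds and their intervals come from the reads and the column totals, with exact Clopper-Pearson intervals at 95% on read pairs, and they cover counting error only.

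**Figure D1:**
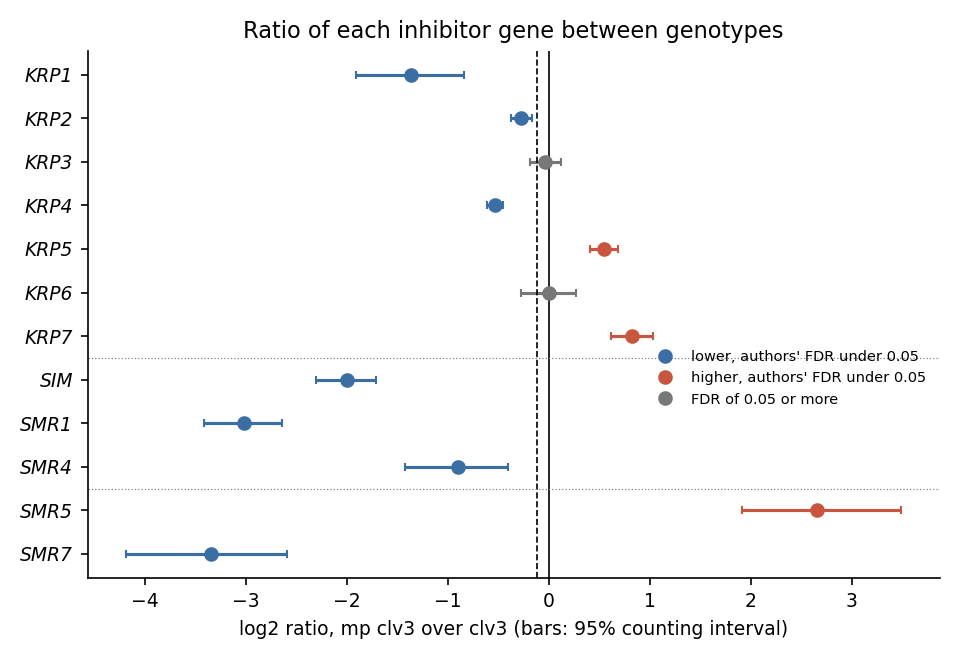
Log2 ratio of mp clv3 over clv3 for the 10 inhibitor genes and for SMR5 and SMR7, with bars for the 95% counting interval, coloured by the call in the authors' table; the dashed line is the median of 18832 genes averaging 100 reads or more (-0.12). SIM, SMR1 and SMR4 lie left of it, while the KRP genes lie on both sides.

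SMR1 (AT3G10525), also called LGO, is required for the giant cells of the sepal epidermis, which grow large by endoreduplication. It was covered by 1007 reads in clv3 against 128 in mp clv3, or levels of 15.0 and 1.85 RPKM. The mp clv3 column was the low one, 8.10-fold lower (interval 6.24 to 10.7), and the FDR in the authors' deposited table was 5.02e-172. This FDR, like those given below, is not known to cover spread between plants. Of the 18832 genes averaging 100 reads or more, 3.63% had a lower log2 ratio than SMR1.

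SIM (AT5G04470) gives the group its name, since trichomes of the sim mutant divide and become multicellular. Its reads numbered 958 in clv3 and 246 in mp clv3, levels of 12.1 and 3.01 RPKM. It was 4.01-fold lower in mp clv3 (interval 3.28 to 4.93; FDR 3.97e-103 in the authors' deposited table). Among genes averaging 100 reads or more, 5.75% had a lower log2 ratio.

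SMR4 (AT5G02220), which lengthens the cell cycle in the stomatal lineage, was covered by 189 reads in clv3 against 104 in mp clv3. Its level was 4.28 against 2.29 RPKM. The gene was 1.87-fold lower (interval 1.32 to 2.68; FDR 2.5e-07 in the authors' deposited table), so its fall was smaller than those of SIM and SMR1 beyond the counting intervals. The 3 genes together held 2154 reads in clv3 against 478 in mp clv3.

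Upstream sequence is shown for SIM and SMR1, the members that fell furthest, and for KRP1 and KRP7, which moved in opposite directions and hold most matches to a cell cycle motif. Each run is the 250 bases before the annotated gene start, 5′ to 3′ on the gene's strand, from RefSeq's TAIR10.1 genome and annotation, which were read together because the deposited table holds no coordinates. Capitals mark matches on either strand to AACGG, the core of the MSA element bound by MYB3R factors in genes of mitosis, or to TGTCGG, a site of auxin response factors.
SIM (chr5:1267417-1267666, minus strand): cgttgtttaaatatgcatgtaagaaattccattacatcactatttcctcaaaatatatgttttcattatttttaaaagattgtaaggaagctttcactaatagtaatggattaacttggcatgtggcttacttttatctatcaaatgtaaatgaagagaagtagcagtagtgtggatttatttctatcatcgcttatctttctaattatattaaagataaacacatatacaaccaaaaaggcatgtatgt
SMR1 (chr3:3282132-3282381, minus strand): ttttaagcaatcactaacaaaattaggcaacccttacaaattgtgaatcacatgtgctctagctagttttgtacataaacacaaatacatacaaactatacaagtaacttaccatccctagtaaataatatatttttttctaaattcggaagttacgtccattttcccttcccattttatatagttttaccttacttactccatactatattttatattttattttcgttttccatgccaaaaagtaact
KRP1 (chr2:9978091-9978340, minus strand): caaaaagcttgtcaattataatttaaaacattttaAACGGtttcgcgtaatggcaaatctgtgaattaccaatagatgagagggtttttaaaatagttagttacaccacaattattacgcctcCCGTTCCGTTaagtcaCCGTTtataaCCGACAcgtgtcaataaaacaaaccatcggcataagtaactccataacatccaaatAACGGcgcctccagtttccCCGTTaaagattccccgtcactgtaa
KRP7 (chr1:18366745-18366994, minus strand): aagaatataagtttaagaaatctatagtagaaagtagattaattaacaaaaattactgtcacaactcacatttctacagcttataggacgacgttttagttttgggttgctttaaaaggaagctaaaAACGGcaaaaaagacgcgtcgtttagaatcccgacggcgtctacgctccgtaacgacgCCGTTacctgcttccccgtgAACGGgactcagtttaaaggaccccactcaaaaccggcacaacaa

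In windows of 300 bases (250 before the start and 50 after), AACGG on either strand was present in 6 of the 10 members, against 24.7% of 26643 promoters. KRP1 held 7 matches and KRP7 held 5, of which 6 and 3 lie wholly before the start and are shown. KRP2 held 3, and KRP3, KRP6 and SMR4 held 1 each, while these letters were not in the windows of SIM, SMR1, KRP4 and KRP5. Of the auxin response factor sites, TGTCGG was in the KRP1 window alone (5.11% of all promoters) and TGTCTC in none of the 10 (14.2%). The E2F-type motif TTTNNCGC was in none of the 10 (7.42%). No 2 matches overlapped. The windows of KRP1 and KRP7 held the most AACGG matches, and those of SIM, SMR1, KRP4 and KRP5 held none of the 4 motifs. Whether these matches bear on the direction of any gene was not tested.

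KRP1 (AT2G23430), also named ICK1, was the least abundant member per length in both columns. It was covered by 215 reads in clv3 against 86 in mp clv3, that is 2.26 and 0.876 RPKM. The gene fell by 2.58-fold in mp clv3 (interval 1.79 to 3.76; FDR 1.28e-14 in the authors' deposited table). This interval overlaps that of SIM but not that of SMR1.

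KRP4 (AT2G32710) keeps cell size even in the shoot meristem by binding to chromosomes and being shared out at division. It was the most abundant member, at 41.1 RPKM (5825 reads) in the clv3 column and 28.5 RPKM (4152 reads) in the other. The gene fell by 1.45-fold (interval 1.37 to 1.53). In TAIR10.1, KRP4 shares 926 bases with CB5-B, a cytochrome b5 gene on the opposite strand, which was 2.69-fold lower in mp clv3. Whether strand was used in counting is not stated in the labels, so reads of these neighbours may not be fully separated.

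KRP2 (AT3G50630), a gene that auxin represses in roots where lateral roots start, was covered by 3332 reads in clv3 against 2843 in mp clv3. Its level went from 33.9 to 28.1 RPKM, 1.21-fold lower (interval 1.12 to 1.30). Against the median of genes averaging 100 reads or more, which itself lay at -0.12 on the log2 scale, KRP2 was 1.11-fold lower, KRP4 1.33-fold and KRP1 2.37-fold. SMR4, SIM and SMR1 were 1.72-fold, 3.69-fold and 7.45-fold lower by that measure.

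KRP7 and KRP5 were the members that rose. KRP7 (AT1G49620), a target of the F-box protein FBL17 in the male germline, was covered by 618 reads in clv3 against 1126 in mp clv3, or 7.81 and 13.8 RPKM. It was 1.77-fold higher (interval 1.54 to 2.04; FDR 6.84e-31 in the authors' deposited table). KRP5 (AT3G24810), which promotes endoreduplication in roots, had 1416 and 2134 reads, or 15.3 and 22.4 RPKM. It was 1.46-fold higher (interval 1.33 to 1.61). Against the median gene KRP7 was 1.92-fold and KRP5 1.59-fold higher.

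KRP3 and KRP6 were at like values in both columns. KRP3 (AT5G48820) had 1331 and 1339 reads (19.8 and 19.4 RPKM), a ratio of mp clv3 to clv3 of 0.977 (interval 0.876 to 1.09). KRP6 (AT3G19150), a further target of FBL17 in the male germline, had 452 and 465 reads (4.96 RPKM in both), a ratio of 0.999 (interval 0.828 to 1.20). Their FDRs in the authors' deposited table were 0.571 and 0.985. The intervals leave room for changes of these sizes and do not show that the genes were equal, and setting the median gene to 0 turned the sign of both small log2 ratios.

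**Figure D2:**
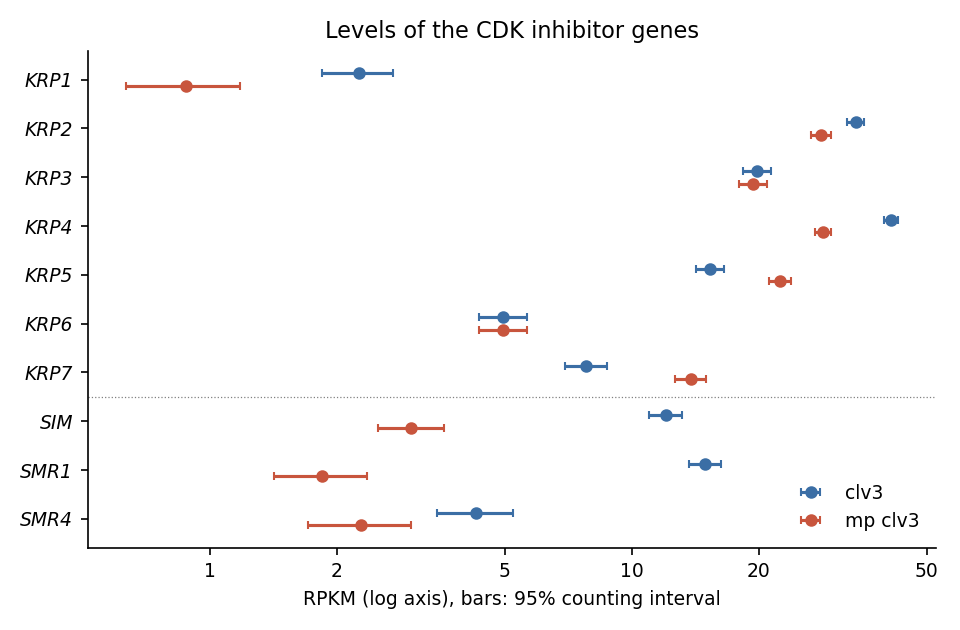
Level of each member in RPKM (log axis) in the clv3 and mp clv3 columns, with bars for the 95% exact Poisson counting interval on read pairs and a dotted line between the KRP and SIAMESE genes. KRP4 is highest in both columns (41.1 and 28.5 RPKM), and SMR1 drops from 15.0 to 1.85 RPKM.

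Ordered by RPKM in clv3, the members ran KRP4, KRP2, KRP3, KRP5, SMR1, SIM, KRP7, KRP6, SMR4 and KRP1. The neighbours KRP5 and SMR1, and KRP6 and SMR4, had overlapping counting intervals. In mp clv3 the order was KRP4, KRP2, KRP5, KRP3, KRP7, KRP6, SIM, SMR4, SMR1 and KRP1. There KRP4 and KRP2 overlapped, as did SIM with SMR4 and SMR4 with SMR1. SMR1 thus stood at rank 5 in clv3 and rank 9 in mp clv3, and KRP7 at ranks 7 and 5. Every KRP gene except KRP1 lay above all 3 SIAMESE genes in mp clv3.

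These orders depend on the gene model lengths behind the RPKM. The length implied by the deposited reads and RPKM was 669 bases for KRP3 and 1411 for KRP4, against 1129 and 2391 bases for the longest transcript in TAIR10.1. With reads divided by the longest transcript, KRP2 came first in both columns (29.4 and 24.3 RPKM). KRP4 then held rank 2 in clv3 and rank 3 in mp clv3, and KRP3 ranks 6 and 4. SIM and SMR1 were then nearly level in clv3, at 12.1 and 12.2 RPKM. The ratio of a gene between genotypes does not depend on this length. The annotation also places SIM and SMR1 over genes on the opposite strand, AT5G04475 and AT3G10527, which are not rows of the table used here. They share 338 of the 792 bases of SIM and 375 of the 826 bases of SMR1. As for KRP4, reads of these neighbours may not be fully separated from those of SIM and SMR1.

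**Figure D3:**
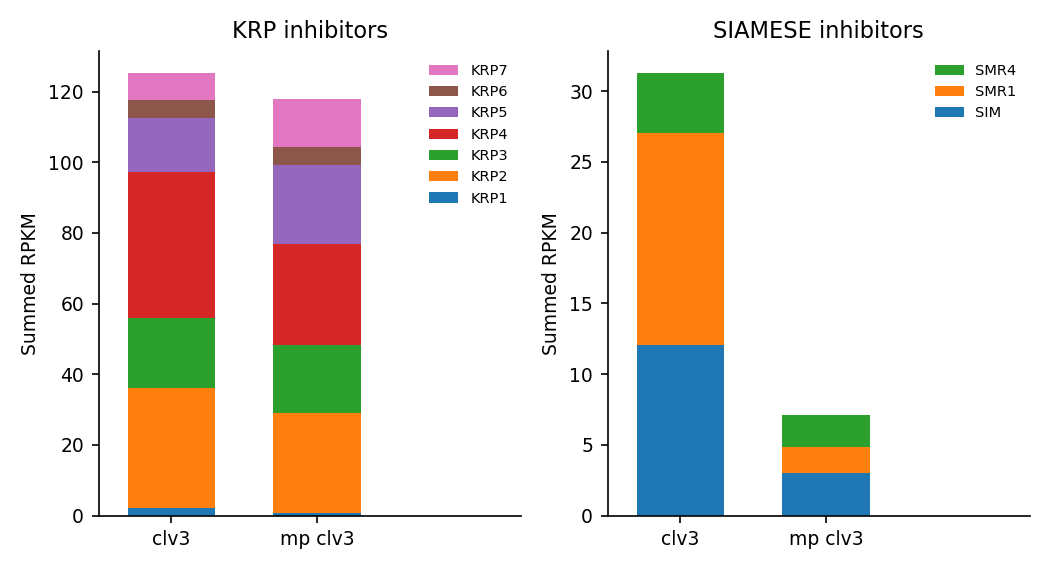
Summed RPKM of the 7 KRP genes (left) and of the 3 SIAMESE genes (right) in each genotype, stacked by gene on axes of different range. The KRP bars reach 125 and 118 RPKM with a changed make-up, and the SIAMESE bars reach 31.3 and 7.14 RPKM.

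Within the KRP sum, the share of KRP4 was 32.8% in clv3 and 24.1% in mp clv3, and that of KRP2 was 27.1% and 23.8%. The share of KRP5 was 12.2% and 19.0%, and that of KRP7 6.23% and 11.7%. Within the SIAMESE sum, SMR1 held 47.8% in clv3 and 25.9% in mp clv3. The KRP sum was 4.00 times the SIAMESE sum in clv3 and 16.5 times in mp clv3, as RPKM ratios. This SIAMESE sum holds SIM, SMR1 and SMR4 alone. Genes of the same type outside it include AT1G51355 (17.1 and 15.9 RPKM), SMR7 (10.3 and 1.01) and SMR5 (1.51 and 9.50). The SIAMESE values here therefore do not stand for the full family. Per RPKM of CDKA;1, the kinase that KRP proteins bind, the KRP sum was 2.14 and 1.59, and the SIAMESE sum was 0.534 and 0.0964. Per summed RPKM of the D-type cyclins, the KRP sum was 0.463 and 0.491, and the SIAMESE sum 0.116 and 0.0297. Since these sums add RPKM of several genes, they carry the length limit above, and with the longest transcripts the KRP sum was 90.2 and 86.9 and the SIAMESE sum 26.8 and 5.87 RPKM.

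Other SIAMESE-related genes did not share one direction. SMR5 and SMR7 are both switched on by DNA damage and reactive oxygen through the transcription factor SOG1. SMR7 was covered by 315 reads in clv3 against 32 in mp clv3, 10.14-fold lower (interval 6.05 to 18.2). SMR5 had 34 and 221 reads, 6.31-fold higher in mp clv3 (interval 3.77 to 11.2). This pair therefore parted, and SOG1 itself was 1.81-fold higher (23.3 to 42.2 RPKM, interval 1.72 to 1.90).

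A further 7 genes carry a SIAMESE-type CDK inhibitor product in TAIR10.1 and were picked by that annotation after the values of most were seen. Of these, 4 fell and none rose in the authors' deposited table, where 46.3% of all genes were called lower, so the count is near the background. AT5G02420 was covered by 102 reads in clv3 against 10 in mp clv3, 10.5-fold lower (interval 4.22 to 33.7). AT2G28870 had 454 and 232 reads, 2.02-fold lower, with AT1G08180 1.62-fold and AT5G40460 1.44-fold lower. AT1G10690 had 758 and 718 reads and AT1G51355 had 1284 and 1234, and neither passed the test. AT1G60783 had 0 reads in both columns.

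**Figure D4:**
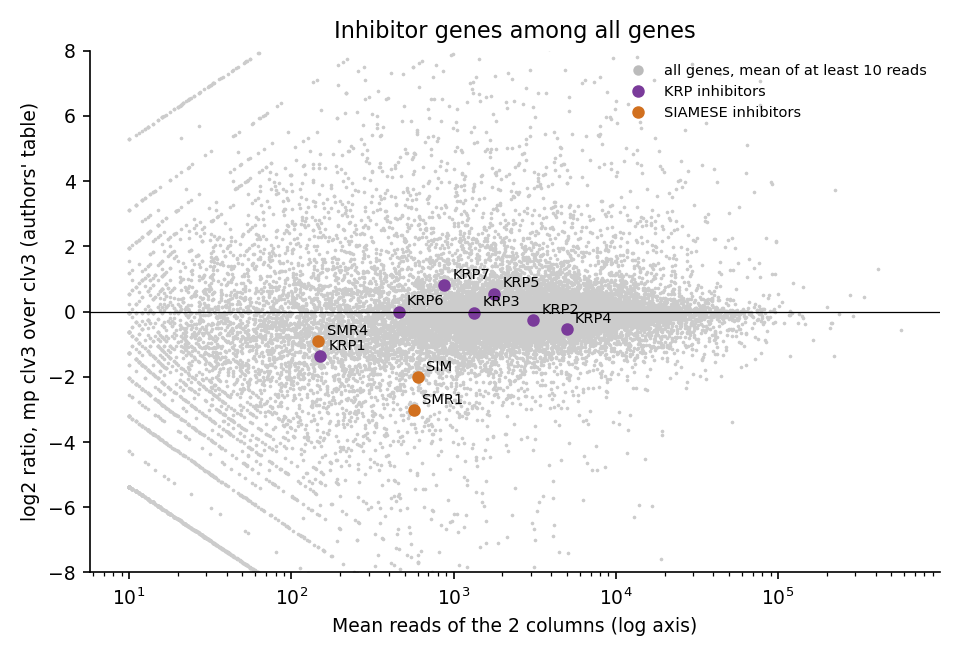
Log2 ratio of mp clv3 over clv3 in the authors' table against the mean reads of both columns (log axis), for genes averaging 10 reads or more (grey) and for the KRP and SIAMESE genes; 327 genes lie outside the axis limits of 8 either way. The KRP genes other than KRP1 sit in the dense band of genes, and SIM and SMR1 lie below it.

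CDKs, CDK-activating kinases and CDK partners differed by less than 2-fold. Not all of these are targets of the inhibitors. Of the 11 genes in this list, 8 fell and 3 rose in the authors' deposited table, none by 2-fold, and their median log2 ratio was -0.19. The list also holds WEE1, a kinase outside these classes, which was among the 3 that rose (1.24-fold, interval 1.12 to 1.38). Here and in the lists that follow, the shares to read these counts against are 46.3% of all genes lower and 26.4% higher, with a median of -0.11. Both shares are larger among the 18832 genes averaging 100 reads or more, with 10044 lower and 6453 higher. CDKA;1 rose from 58.6 to 74.0 RPKM, 1.26-fold (interval 1.21 to 1.31). CKS2, a small CDK-binding subunit, was 1.66-fold lower, as were CDKB1;2, a plant-specific kinase of the G2 phase, by 1.57-fold, and CKS1 by 1.28-fold.

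Among the 10 D-type cyclins, which carry growth signals to CDKA;1, 6 fell, 1 rose and 3 did not pass the test, and the median log2 ratio was -0.27 in the authors' deposited table. As 72.7% of all genes were called, the 7 calls are near the background. CYCD1;1 was 2.702-fold, CYCD3;3 2.12-fold and CYCD3;1 1.29-fold lower, and CYCD4;2 fell from 2.32 to 1.37 RPKM. CYCD3;2, the most abundant of them at 109 and 140 RPKM, was the single one that rose. The A-type cyclins, which act in S phase and at mitosis and some of which keep cells from endoreduplication, fell in 9 of 10 cases, against 46.3% of all genes, with a median of -0.69. CYCA1;1 was 2.29-fold, CYCA2;1 1.99-fold, CYCA2;4 1.90-fold and CYCA2;3 1.69-fold lower.

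Of 8 measured genes of the RBR-E2F module, which CDKs release to start DNA replication, 5 fell, 1 rose and 2 did not pass the test, and the median log2 ratio was -0.23 in the authors' deposited table. These 6 calls are likewise near the 72.7% of all genes. RBR1, the brake on E2F, had 26.7 and 26.9 RPKM, a ratio of 1.005 (interval 0.965 to 1.05). DEL1, which holds off endoreduplication, was 1.60-fold lower, and E2FA, DEL2 and DEL3 were 1.30-fold, 1.29-fold and 1.23-fold lower. All 3 CCS52 genes fell in the authors' deposited table, where 46.3% of all genes did, and the median was -0.94. These encode activators of the ligase that destroys mitotic cyclins, and CCS52A1 (1.97-fold) and CCS52A2 (1.92-fold), which promote endoreduplication, were lower together with CCS52B (1.53-fold).

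**Figure D5:**
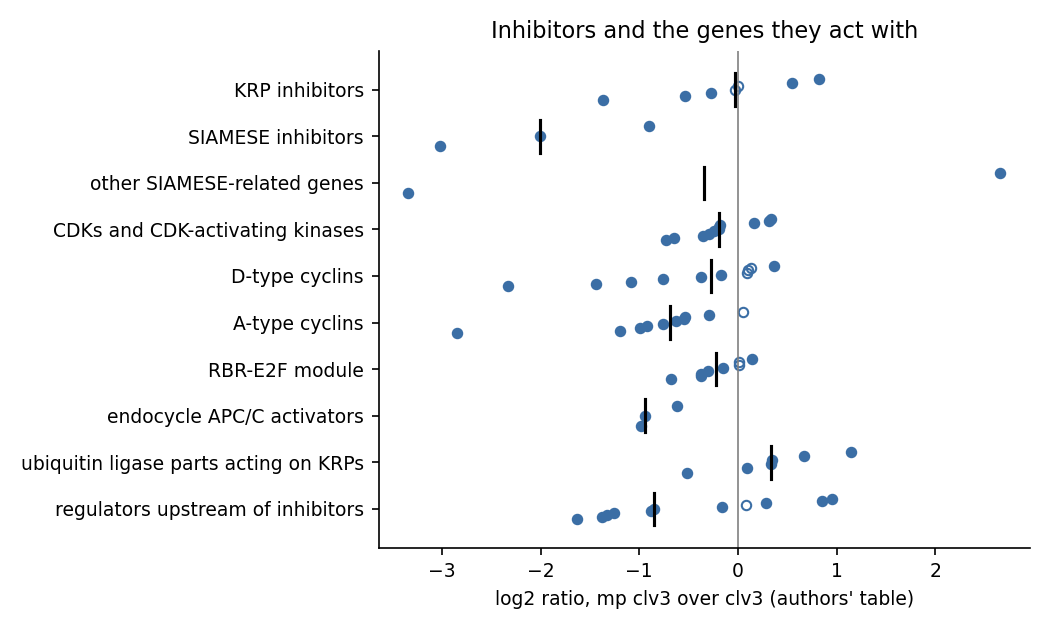
Log2 ratio of mp clv3 over clv3 in the authors' table for each gene of the inhibitor groups and of the genes they act with; filled points have an FDR under 0.05, open points do not, and vertical bars are medians. SIM, SMR1 and SMR4 have a median of -2.00, the A-type cyclins -0.69 and the ubiquitin ligase parts 0.34.

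Ubiquitin ligase parts that lead KRP proteins to destruction, listed with relatives such as SKP2A and RHF2A, moved the other way from most lists. Not every listed part is known to act on a KRP protein. Of 6, 5 rose and 1 fell in the authors' deposited table, against 26.4% and 46.3% of all genes, and their median log2 ratio was 0.34. RHF1A, a RING protein that acts on KRP6 in gamete formation, was 2.21-fold higher (19.3 to 42.8 RPKM), its relative RHF2A 1.27-fold and the F-box gene SKP2A 1.59-fold higher. RKP was 1.26-fold higher. FBL17, the F-box gene for KRP6 and KRP7, was 1.43-fold lower, with 7622 reads in clv3 and 5484 in mp clv3. SKP2B passed the test at 1.06-fold, but its counting interval on read pairs, from 0.999 to 1.13, included 1. Protein levels were not measured.

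Genes known to act upstream of inhibitors, most of them in the epidermis, form a further list, which shares GL1, GL3 and GL2 with the trichome markers below. Of these 11 regulators, 7 fell, 3 rose and 1 did not pass the test in the authors' deposited table, and their median log2 ratio was -0.85. All genes were also more often lower (46.3%) than higher (26.4%), so the direction alone is no result about these regulators. The median over all genes was -0.11. At least 2-fold, 4 of the 11 were lower and none higher, against 18.5% and 9.33% of all genes. ATML1, the homeobox gene upstream of SMR1 in sepals, was 1.81-fold lower, and its partner PDF2 1.84-fold. ACR4, a receptor kinase of the epidermis, was 2.60-fold lower. EGL3 and GL2, which act in trichome formation, were 3.09-fold and 2.39-fold lower, and AS1, a leaf MYB gene, was 2.51-fold lower. Not all of the list went this way. TTG1 was 1.22-fold higher (interval 1.16 to 1.28), GL1 and SOG1 were also called higher, and GL3 did not pass the test. SMR1 and SIM were thus lower by more than any of these regulators, but the counting interval of SIM overlapped that of EGL3 (2.72 to 3.53), and that of SMR1 did not.

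Markers of cell types in which members are known to act are given beside them. Of 5 trichome markers, 3 fell and 1 rose in the authors' deposited table, and their summed level went from 30.0 to 10.5 RPKM. GL1, GL3 and GL2 are among both these markers and the regulators above, so the 2 lists are not separate observations. TRY, an inhibitor of trichome fate, had 550 and 18 reads, while GL3 had 286 and 312 and GL1, the defining MYB gene, 18 and 36 reads. The call on GL1 rests on these few reads, and its ratio of 1.94 has an interval from 0.828 to 4.91. Of 5 meiocyte and germline markers, 3 fell and none rose, from a summed 26.2 to 10.5 RPKM. With 46.3% of all genes lower and 26.4% higher, neither marker count stands as a result. The meiotic recombinase gene DMC1 was 3.87-fold lower, the meiotic cyclin gene SDS 1.53-fold lower, and DUO1, of the male germline, had 4 and 0 reads. Of KRP6 and KRP7, which are known from the germline, KRP6 was not called and KRP7 rose. The part of these cell types in the values of SIM, SMR1, KRP6 and KRP7 was not tested.

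The test across all genes can shift with the scaling of the columns. With column totals as the scale, an exact binomial test of each gene's read pairs gave 6444 genes higher and 11141 lower, and setting the median gene to 0 gave 8130 higher and 9228 lower. The authors' deposited table has 7206 and 12651 calls, and 7975 and 11882 with its log2 ratios taken relative to the median gene. The exact tests called 64.4% of all genes with column totals and 63.5% with the median gene set to 0. The 8 called inhibitor genes were called in the same direction by both. With column totals, the exact test left each of these 8 with an adjusted p-value far above its deposited FDR. For SMR1 these were 2.09e-87 against 5.02e-172, for SIM 4.84e-52 against 3.97e-103 and for KRP4 2.53e-37 against 7.78e-74. Whether the deposited test took both mates of a pair as independent reads was not tested. Of the genes called in the lists above, CDKD;1, CYCD6;1, CYCA3;3, DPA, SKP2B and GL1 had counting intervals on read pairs that included a ratio of 1, and none of the 8 called inhibitor genes did.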

How the data were processed

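Per the labels' protocols, strand-specific libraries of mRNA from shoot apices were read as pairs of 100 bases. The submitters' processing notes name CASAVA 1.7, BWA and TAIR10. The authors deposited reads per gene, 1 column per genotype, with 0.5 in place of 0, which was read as 0, and RPKM, their log2 ratio (recomputed from the RPKM) and an FDR, an adjusted p-value whose test is not stated, per the file headers. How the libraries were joined is not given in the sources used here. Of 27323 rows, 1 with misplaced content was left out. Low read numbers were mostly even (83.3% of values from 1 to 9 in clv3), so both mates seem to be counted, and intervals were computed on reads divided by 2. PCR copies are not independent, so intervals cover counting error only. The planned fallback applied, since the table has no column per library and no test across replicates could be made.

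The members and gene lists were chosen with earlier results of these data known. A listed gene was used under its name where TAIR10.1 carries that name (99 of 109). SMR2, SMR3, SMR6, SMR8 to SMR13 and CDKD;3 were therefore left out of the lists, and 2 more (E2FB and AG) were not analysed here. The identifiers listed for SMR2 (AT1G08180), SMR3 (AT5G02420), SMR6 (AT5G40460), SMR8 (AT1G10690), SMR9 (AT1G51355) and SMR10 (AT2G28870) are among the 7 genes picked by annotation. Named genes are the 10 members, SMR5, SMR7, MP and CLV3, and the 4 largest changes per list among genes called at an FDR below 0.05 with 100 reads or more in the higher column. Others were chosen after their values were seen. The intervals and the exact test were tried on simulated data of independent Poisson read pairs. These held no PCR copies and no spread between libraries, so the trial cannot speak to either. Alternatives were median scaling, quantile normalization, a mean of at least 100 reads, a pseudocount of 1 RPKM, at least 2-fold and exact tests on read pairs. Python 3.11.15 with scipy 1.17.1 was used.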

Additional observations from a re-analysis of the deposited data

How the results depend on the processing

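No paired analysis was possible because the table joins both libraries of a genotype in 1 column, and leaving out a library was not run for the same reason. The 8 called members (2 higher, 6 lower) stayed at these counts under median scaling, quantile normalization, the minimum of 100 reads, the pseudocount and exact tests on read pairs. Median scaling, quantile normalization and the pseudocount keep the authors' FDR and so can turn a direction but not end a call, while the minimum of 100 reads took the calls over all genes to 16497. Asking for at least 2-fold left 3 members, 0 higher and 3 lower, and took all genes from 19857 to 7593, with 2549 higher and 5044 lower, since it removes smaller changes. Exact tests on read pairs called 17585 genes, and 17358 with median scaling, an alternative chosen after seeing the data. The log2 ratio of KRP3 turned from -0.03 to 0.087 with median scaling, alone or with the exact test. That of KRP6 turned to 0.12 in both and to 0.20 with quantile normalization. Neither gene was called under any setting. Of 70 member values, 60 kept direction and call. Depth limits KRP1 and SMR4 most, with 86 and 104 reads in mp clv3.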
